A study of Homo sapiens with 9 samples.

Results

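The MIR34A locus lies on chromosome 1 at 1p36 and was taken as the 150 kb of hg38 at chr1:9100001-9250000. It was chosen with its peak coverage in all 8 libraries already known, so its differences between groups are given below as a description, without a test. RefSeq places 6 genes in or across this window, of 59098 annotated in all. They are GPR157, MIR34AHG, MIR34A, LNCTAM34A, H6PD and LOC124903836. All of GPR157 lies inside the window, while H6PD runs past its right edge. The assay was DRIP-seq, in which restriction fragments that hold DNA:RNA hybrids are pulled down with the antibody S9.6 and sequenced. The cells were SH-SY5Y, an established human neuroblastoma line, with a lentiviral short hairpin RNA that was either a control (shNC) or directed against TDP-43 (shTDP43), a nuclear protein that binds RNA and DNA and is the product of TARDBP. Both groups are given as stable puromycin-selected cells, selected at 2 µg/mL for 2 weeks and then held at 1 µg/mL, and both were described under 1 protocol. Each hairpin has 3 untreated libraries and 1 library digested for 6 h with RNase H, which removes the RNA strand of a hybrid. Nothing in the labels says that replicates are separately transduced lines, so p-values measure only the spread between these libraries, which may be technical. The window held 21, 22 and 21 peaks in shNC replicates 1, 2 and 3, of 73353, 69453 and 70819 peaks in those libraries. In shTDP43 replicates 1, 2 and 3 it held 6, 8 and 12, of 57204, 69642 and 70016. After RNase H it held 3 of 15504 peaks in shNC and 0 of 8868 in shTDP43. A peak list does not measure the knockdown itself.

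Hybrids that form behind RNA polymerase leave the non-template DNA strand unpaired, and the whole structure is called an R-loop. R-loops are common at GC-rich gene starts, over actively transcribed gene bodies and near gene ends. MIR34AHG is the long primary transcript from which the miR-34a hairpin is cut. The microRNA miR-34a is induced by p53, represses cell-cycle, survival and Notch genes, and is studied in neuroblastoma because the short arm of chromosome 1 is often lost in that tumour. LNCTAM34A, also known as a p53-regulated antisense partner of the host gene, starts beside it on the opposite strand. The start of MIR34AHG is at 9182338 on the minus strand, and that of LNCTAM34A at 9182204 on the plus strand, so the first bases of both genes overlap.

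The sequences the locus is known for are shown first. MIR34A lies at chr1:9151668-9151777 on the minus strand, inside the MIR34AHG span. The hairpin below has 110 bases, with both mature arms in capitals, and comes from RefSeq (GRCh38.p14).
MIR34A hairpin: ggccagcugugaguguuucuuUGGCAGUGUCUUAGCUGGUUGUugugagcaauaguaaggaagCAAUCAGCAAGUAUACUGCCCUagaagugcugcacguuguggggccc
The mature miR-34 and miR-449 products are shown because they decide which messengers the family can pair with. Capitals mark the seed, bases 2 to 8. The first 3 below share the miR-34a-5p seed GGCAGUG. The mature miR-34c-5p is named only.
miR-34a-5p: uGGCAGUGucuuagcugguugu
miR-449a: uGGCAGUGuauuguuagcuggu
miR-449b-5p: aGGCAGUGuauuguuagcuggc
miR-34b-5p: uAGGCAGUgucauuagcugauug
miR-449c-5p: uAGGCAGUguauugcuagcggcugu
The last 2 carry the same letters moved by 1 base, with the seed AGGCAGU.

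The region of both gene starts is shown because the strongest shNC peak lay over it. Each sequence covers 250 bases before and 50 bases after a start, 5′ to 3′ on the strand of its gene, from RefSeq (GRCh38.p14). The 2 windows share no base, although the gene spans overlap. MIR34AHG is at chr1:9182289-9182588, minus strand, with the 2 matches to CAGGTG or its reverse complement CACCTG in capitals. LNCTAM34A is at chr1:9181954-9182253, plus strand, with its p53 binding motif in capitals.
MIR34AHG start: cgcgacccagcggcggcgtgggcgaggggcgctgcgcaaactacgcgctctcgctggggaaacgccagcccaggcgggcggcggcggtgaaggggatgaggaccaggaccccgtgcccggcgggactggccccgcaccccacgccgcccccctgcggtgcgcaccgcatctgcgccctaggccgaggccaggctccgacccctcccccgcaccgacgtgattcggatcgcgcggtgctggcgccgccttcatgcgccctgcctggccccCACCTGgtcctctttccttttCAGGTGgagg
LNCTAM34A start: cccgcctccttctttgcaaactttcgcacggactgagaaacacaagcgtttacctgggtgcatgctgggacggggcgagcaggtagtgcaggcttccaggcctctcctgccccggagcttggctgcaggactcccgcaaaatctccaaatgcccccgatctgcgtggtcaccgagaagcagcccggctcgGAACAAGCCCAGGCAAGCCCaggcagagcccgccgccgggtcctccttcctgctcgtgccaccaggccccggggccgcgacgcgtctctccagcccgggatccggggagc
The MIR34AHG window was 75% G or C and held 38 CpG dinucleotides, a number that 91.3% of the 35116 promoter windows in the table did not exceed. CAGGTG on either strand, the core motif of SNAIL and ZEB repressors, was found at least once in 20.6% of those windows and 2 or more times in 3.49%. The LNCTAM34A window was 67% G or C. Its capitals mark a full p53 motif, made of 2 half-sites with 0 bases between them, at chr1:9182144-9182163. A full motif, with up to 13 bases allowed between half-sites, was found in 10 of the 35116 windows (0.0285%), and a half-site in 6.63%. These motifs are matches of letters and no measure of binding. The 20 bases of the p53 motif lay wholly under a peak in all 3 shNC libraries and in shTDP43 replicate 3. They were not under a peak in shTDP43 replicates 1 and 2 or in either RNase H library. The GPR157 start window was 80.3% G or C with 43 CpG. The H6PD promoter window, at chr1:9239597-9239896, was 47.3% G or C with 5 CpG. It lies inside the H6PD span used here, which begins at 9234774, so it does not describe the sequence at that end.

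Libraries differed in depth and in how much of the genome they called. Total covered length was 125 to 142 Mb in shNC, and 91.6, 128 and 131 Mb in shTDP43 replicates 1, 2 and 3. Depth was read from the background pileup, the number of fragments expected where no peak lies, which was 1.62 to 2.01 in shNC and 1.05, 1.68 and 1.94 in shTDP43. shTDP43 replicate 1 thus stood apart as the shallowest untreated library, and values that rest on it are also given without it. Covered length below is unscaled. Log2 differences are on log2(covered length scaled to the library's total, plus 100 bp), where a gene that is fully covered in every library still moves upwards. ENO1, for example, was covered over 18.8 kb in 5 untreated libraries and 18.2 kb in shTDP43 replicate 1 and had a log2 difference of 0.18. The median was 0.05 over the 17020 genes tested, and -0.14 over the 17011 tested without scaling. In markers of the cell type, 11 of 12 adrenergic neuroblastoma genes were covered in every untreated library, as were 4 of 9 mesenchymal ones, while 7 of 8 genes of unrelated cell types had no peak in any. The 8th, the keratin gene KRT5, had short peaks, of 0 to 0.898 kb in untreated libraries and 0.903 kb in both RNase H libraries. The adrenergic gene without coverage was TH, with 0 kb in all 8 libraries. Hybrid coverage is no measure of expression. The same shares over all genes were not computed, so nothing about cell type is read from these counts.

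Over the whole window, shNC replicates 1, 2 and 3 had 49.7, 46.7 and 47.8 kb under peaks, and the corresponding shTDP43 libraries had 14.04, 21.5 and 24.4 kb. Both groups were thus well apart, with no overlap, and shTDP43 replicate 1 was the lowest. The means were 48.1 ± 1.502 kb (SD, n = 3) and 19.9 ± 5.32 kb (SD, n = 3), a log2 difference of -1.11, or -1.04 without shTDP43 replicate 1. In a bulk sample, fewer cells with a hybrid and less hybrid per cell cannot be told apart. The RNase H libraries held 1.33 kb in shNC and 0 kb in shTDP43.

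**Figure D1:**
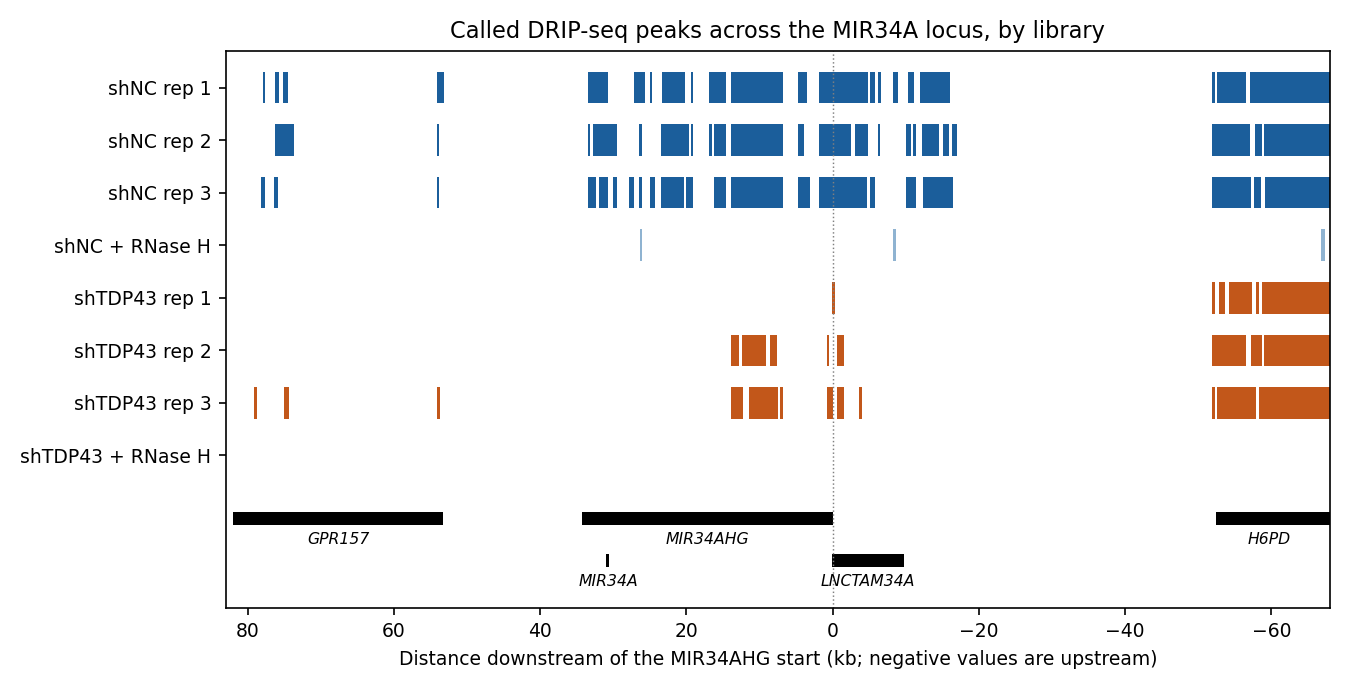
Peaks of the 8 libraries along the locus, 1 row per library, with genes drawn at the bottom and distance from the MIR34AHG start in kb on the x axis. The shNC rows hold 21, 22 and 21 peaks and the shTDP43 rows 6, 8 and 12, and the block over H6PD at the right is present in all 6 untreated rows.

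The map of peaks along the locus shows where the difference lay. MIR34AHG, with 1 kb on each side, was covered over 21.5, 20.8 and 21.9 kb in the shNC libraries and 0.403, 6.12 and 7.02 kb in the shTDP43 libraries. All 3 shNC values were close together, and every shTDP43 value was far below them, with replicate 1 nearly empty. The means were 21.4 ± 0.559 kb and 4.52 ± 3.59 kb (SD, n = 3 each). The log2 difference was -2.77 ± 0.81 (SE of the fit over all genes), and -1.66 without shTDP43 replicate 1. As a share of the gene with its flanks, shNC coverage was 57.2% to 60.2% and shTDP43 coverage 1.11% to 19.3%.

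LNCTAM34A, the antisense partner, was covered over 8.30, 6.35 and 7.10 kb in shNC and 0.403, 1.39 and 2.203 kb in shTDP43. Its groups did not overlap either. The log2 difference was -2.44 ± 0.41 (SE), and -1.95 without shTDP43 replicate 1. The lists give no strand, so hybrids of MIR34AHG and LNCTAM34A cannot be told apart at their shared start. With 1 kb of flank, both genes also count some of the same bases.

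MIR34A itself is only 110 bp long. Within 1 kb of it, shNC libraries were covered over 0.950, 2.11 and 1.43 kb, and all 3 shTDP43 libraries over 0 kb. The hairpin bases shown above were under a peak in shNC replicate 2 alone. In shNC replicates 1 and 3 the nearest peak stopped short of the hairpin on its lower-coordinate side, at 9151617 and 9151648.

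GPR157, an orphan G protein-coupled receptor of primary cilia, lies downstream of the host gene's end. It was covered over 2.62, 2.95 and 1.73 kb in shNC and 0, 0 and 1.49 kb in shTDP43. These are short stretches of a 28.8 kb gene, and shTDP43 replicate 3 came near the lowest shNC library. The log2 difference was -3.27 ± 1.07 (SE), and -2.61 without shTDP43 replicate 1. With 0 kb in shTDP43 replicates 1 and 2, both values depend on the 100 bp added and are not sizes of a difference. The gap between GPR157 and MIR34AHG held 0.052 kb in shNC replicate 1 and 0 kb in all other libraries.

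H6PD makes NADPH in the endoplasmic reticulum, as the first enzyme of the pentose phosphate steps there. Its covered length was 21.5, 21.8 and 21.1 kb in shNC and 18.7, 20.1 and 20.4 kb in shTDP43. In raw length every shTDP43 library was therefore slightly lower, but the scaled log2 difference was 0.07 ± 0.12 (SE). Its sign changed to -0.12 without scaling and to -0.06 without shTDP43 replicate 1. LOC124903836, a short long non-coding RNA gene inside H6PD, had 2.76, 2.45 and 2.18 kb in shNC and 2.63, 2.45 and 2.76 kb in shTDP43, with groups that overlapped and a log2 difference of 0.27 ± 0.20 (SE), which was 0.11 without shTDP43 replicate 1 and 0.09 without scaling.

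**Figure D2:**
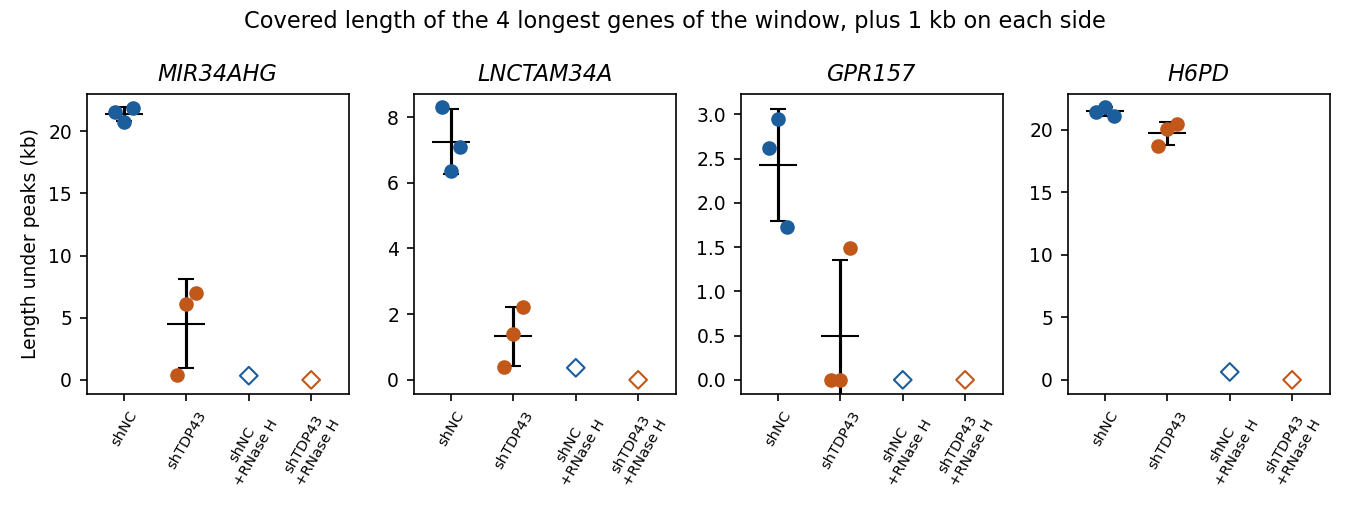
Length under peaks in kb for the 4 longest genes of the window with 1 kb on each side, 1 point per library, for untreated and RNase H libraries of both hairpins. MIR34AHG lies between 20.8 and 21.9 kb in shNC and between 0.403 and 7.02 kb in shTDP43, while the H6PD points lie at 18.7 kb or above in all 6 untreated libraries.

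The points for single genes put MIR34AHG and LNCTAM34A on one side and H6PD on the other. The 42.7 kb between LNCTAM34A and H6PD held 5.25, 5.24 and 6.08 kb in shNC and 0.316, 0.498 and 0.313 kb in shTDP43. Thus the stretch with less coverage in shTDP43 ran past the end of LNCTAM34A. What shTDP43 coverage remained in the gap began at 9234276, beside H6PD. In replicate 2 it was part of a peak that ran on into H6PD. In replicates 1 and 3 it was a separate short peak that ended before the gene, at 9234591 and 9234588.

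In bins of 5 kb, 18 of the 30 bins of the window had coverage in an untreated library. In 11 of these 18 every shTDP43 library was below every shNC library on the scaled length, and in 0 bins was every shTDP43 library above. Over all 83654 such bins of the genome the shares were 6.67% below and 3.49% above. The window was chosen on these values, so nothing is read from its count. The 11 bins followed each other without a break from 9145001 to 9200000. Of 17 bins covered in all 3 shNC libraries, 6 were empty in all 3 shTDP43 libraries, against 2.30% of 51753 bins genome-wide. A further 12 bins were empty in all 6 libraries.

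**Figure D3:**
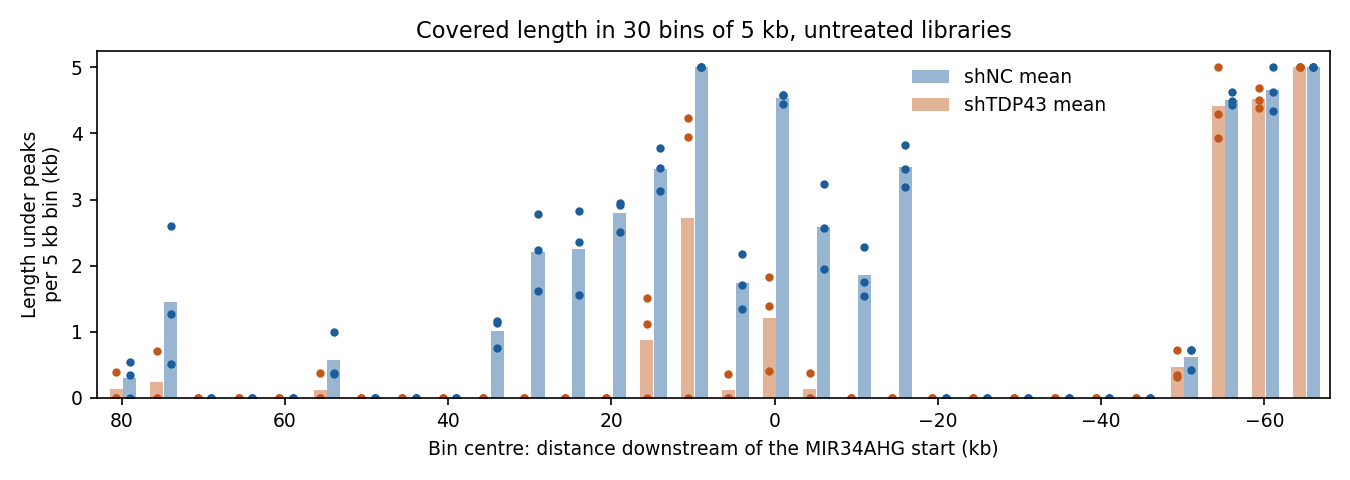
Covered length per 5 kb bin in kb along the locus, with bars for the mean of 3 untreated libraries and points for single libraries. In 11 neighbouring bins around the MIR34AHG start every shNC point stands above every shTDP43 point, and both groups are high at the H6PD end.

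The plot by bin also shows that coverage was not even within the host gene. Merging touching peaks of all 8 libraries gave 19 stretches. Of these, 7 were in all 3 shNC libraries and in no untreated shTDP43 library. Another 3 were in all 3 shNC and in 1 or 2 shTDP43 libraries, 2 were in all 6, 6 were in 1 or 2 shNC libraries only, and 1 was in shTDP43 only. No genome-wide share of such stretches was computed, and the window was chosen on these values. Nothing is therefore read from these counts. The 2 stretches in all 6 were the shared start of MIR34AHG and LNCTAM34A and the H6PD block.

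Inside MIR34AHG the longest stretch lay at chr1:9168492-9175545, 10.3 kb downstream of the start at its centre. All 3 shNC libraries covered its whole 7054 bp. In shTDP43 it was covered over 0, 5351 and 5812 bp, so replicates 2 and 3 kept most of it and replicate 1 had none. The stretch over the start, at chr1:9180413-9187118, was covered over 6706, 6115 and 6575 bp in shNC and 403, 1388 and 2203 bp in shTDP43. Here all 3 shTDP43 libraries were far lower. The stretch that holds the hairpin, at chr1:9148844-9152774, was covered over 2774, 3530 and 2830 bp in shNC and 0 bp in each shTDP43 library. The H6PD block, at chr1:9234276-9252313, was covered over 16991 to 17222 bp in shNC and 15953, 17025 and 17159 bp in shTDP43, with ends beyond the right edge of the window.

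Peak height gave a second description. The fold of a peak is the authors' own value, over the local background of its library, and the pileup at the summit is the number of fragments read back from it. In the span from MIR34AHG to LNCTAM34A the strongest peak had a fold of 18.1, 21.2 and 16.4 in shNC, with pileups of 63, 61 and 42. In shTDP43 it had a fold of 4.39, 5.60 and 5.44, with pileups of 8, 14 and 15. The strongest shNC peak was over the gene starts in each replicate, whereas in shTDP43 replicate 3 the strongest lay 12.7 kb into MIR34AHG. Within its own list the strongest peak ranked at percentile 93.8 to 94.5 in shNC and 41.6 to 66.1 in shTDP43. In lists of different lengths such ranks are a description only.

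At H6PD the strongest peak had a fold of 17.0, 16.7 and 13.3 in shNC and 15.6, 16.4 and 20.1 in shTDP43. These ranges overlapped, and shallow shTDP43 replicate 1 lay within that of shNC. The lowest fold that was called at background, among 2000 summits per library, was 2.93 in shTDP43 replicate 1 and 2.60 to 2.73 in the other untreated libraries. The part of depth in the differences at MIR34AHG and LNCTAM34A was not tested.

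**Figure D4:**
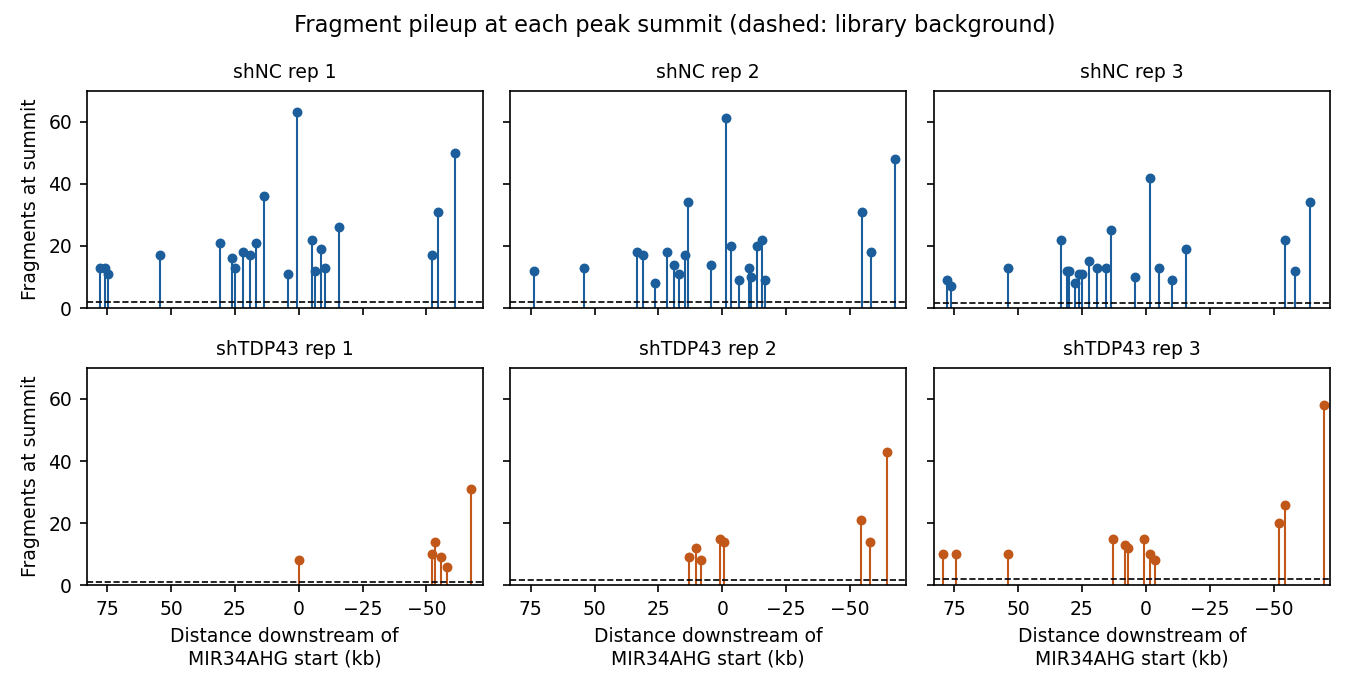
Summit pileup in fragments against distance from the MIR34AHG start in kb, 1 point per peak, in shNC and shTDP43 libraries. Around the start the highest shNC summits reach 63, 61 and 42 fragments and the shTDP43 summits 15 at most in that gene pair, while at H6PD both groups reach 31 or more.

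The plot of summit pileup places both peaks side by side. After RNase H, the shNC library kept 3 peaks in the window, of 333, 367 and 632 bp, with pileups of 7, 8 and 9 and folds of 4.13, 4.65 and 5.17. They lay in the body of MIR34AHG, in LNCTAM34A and in H6PD, and overlapped peaks of 3, 1 and 3 untreated shNC libraries. None was over the gene starts. The treated shTDP43 library had no peak in the window, and each treated group is 1 library, so there is no replicate check. The treated lists are also shorter. With each untreated list held to its strongest peaks, as many as in the treated list of its hairpin, the window still held 32.5, 25.2 and 28.6 kb in shNC and 8.91, 8.69 and 9.29 kb in shTDP43.

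Peak ends were often the same base in several libraries. The untreated peaks of the window had 142 distinct ends, counting the right end of the H6PD block at 9252313, beyond the window edge. Of these, 19 (13.4%) were shared by at least 2 untreated libraries, against 12.2% genome-wide. Both ends of the H6PD block, 9234276 and 9252313, were identical in all 6 libraries. The left end of the long MIR34AHG stretch, 9168492, was shared by 5 libraries, which were all but shTDP43 replicate 1, and its right end, 9175545, by 4. The left end of the stretch over the gene starts, 9180413, was shared by the 3 shNC libraries. In shTDP43 replicates 2 and 3 a peak there began at 9181516 instead.

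The nearest coding genes on either side come next. SLC2A5, a fructose transporter gene, SLC2A7 and CA6 on the lower-coordinate side had 0 kb in every untreated library. On the other side SPSB1, a substrate adaptor of a ubiquitin ligase, had 8.72, 6.62 and 6.79 kb in shNC and 4.30, 5.92 and 7.501 kb in shTDP43, with overlapping groups. SLC25A33, a mitochondrial pyrimidine nucleotide carrier gene, had a log2 difference of 0.03, and TMEM201, a gene of the inner nuclear membrane, 0.10. Of 35 coding or long non-coding genes within 1 Mb of the window, 22 outside it had enough coverage to be tested, and 0 gained and 0 lost coverage (limma, adjusted p under 0.05 over all 17020 genes), with 0 at an unadjusted p under 0.05, against 11.1% of all genes. Their median was 0.02 and 12 were positive, beside 0.05 and 56.5% over all genes. The smallest p was that of LOC105376717, at -0.40 with an adjusted p of 0.573 by limma. CTNNBIP1, an inhibitor of beta-catenin, followed at 0.20 (adjusted p = 0.649, limma), with ENO1.

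**Figure D5:**
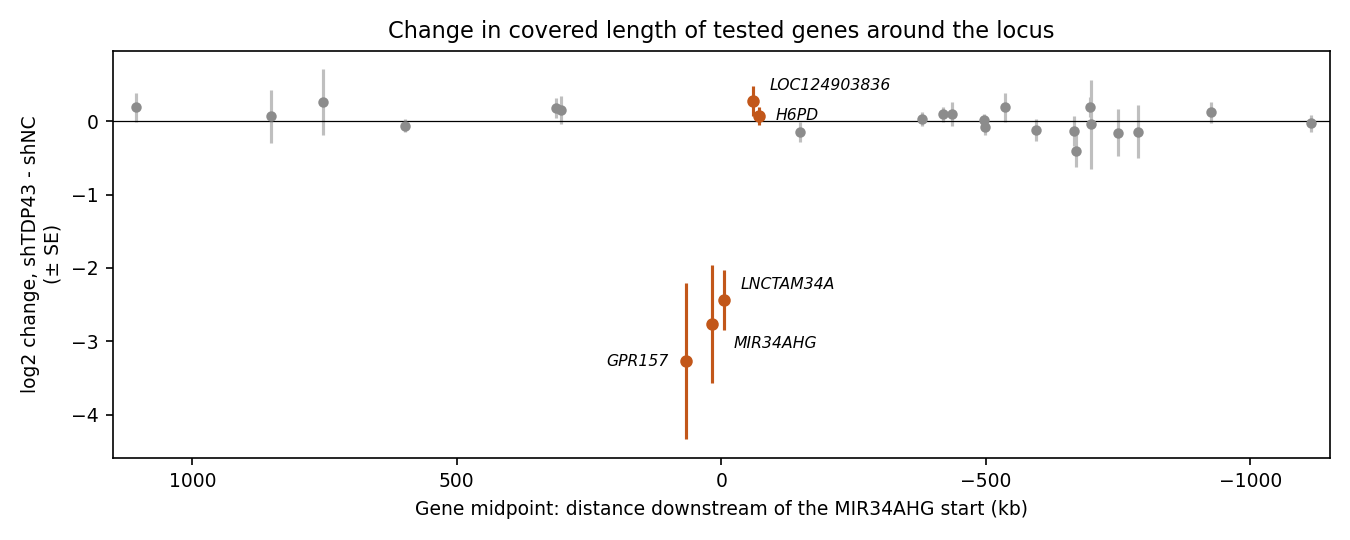
Log2 difference in covered length, shTDP43 minus shNC, with its SE, for each tested gene within 1 Mb of the window, against the distance of the gene's midpoint from the MIR34AHG start in kb. GPR157, MIR34AHG and LNCTAM34A lie between -3.27 and -2.44, and the grey points of the 22 neighbours lie near 0.

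In the plot of neighbouring genes, GPR157, MIR34AHG and LNCTAM34A lie apart from the 22 others, of which the lowest is LOC105376717 at -0.40. GPR157 had 0 kb in shTDP43 replicates 1 and 2, so its place depends on the 100 bp added. Across the genome 106 of 17020 genes lost coverage (0.623%) and 28 gained it (0.165%) by limma at an adjusted p under 0.05. On the scaled length, 10.2% of genes had every shTDP43 library below every shNC library. These shares are the background for the lists that follow. Overlap of groups is given for single genes on unscaled length, where that share was not computed. The limma counts depend on the libraries used. Without shNC replicate 1 there were 1 loss and 1 gain, and without shTDP43 replicate 1 there were 165 losses and 44 gains. At an unadjusted p under 0.05 by limma there were 1895 of the 17020 genes (11.1%), the share to read the unadjusted counts of the lists against.

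The miR-34a targets were described because the microRNA is known to repress them. Of 33 genes, 22 were tested, and 0 gained and 0 lost coverage by limma, with 6 at an unadjusted p under 0.05. The median was -0.04, with 11 positive. The Notch receptor gene NOTCH1 had 30.5, 31.3 and 28.1 kb in shNC and 0.422, 5.50 and 4.47 kb in shTDP43, with no overlap. Its log2 difference was -3.49 ± 0.70 (SE) with an adjusted p of 0.0867 by limma, which was 0.00330 without shTDP43 replicate 1 and 0.0455 without shTDP43 replicate 2. Over fits without 1 library or without scaling it ran from 0.00330 to 0.518. The growth factor receptor gene PDGFRA had 28.6, 23.8 and 27.5 kb in shNC and 30.3 to 38.0 kb in shTDP43. Every shTDP43 value was above every shNC value, at a log2 difference of 0.58 ± 0.10 (SE, limma adjusted p = 0.0505). The share of all genes with that order was not computed. Without scaling the log2 difference of PDGFRA was 0.38 (limma adjusted p = 0.561). In fits without 1 library its limma adjusted p ran from 0.0641 to 0.250. BCL2, which blocks apoptosis, had a log2 difference of -0.66 (adjusted p = 0.141, limma). MYCN, the main amplified oncogene of neuroblastoma, was chosen after its values were seen and had 2.62 to 2.79 kb in shNC and 0.800, 1.84 and 2.27 kb in shTDP43 (limma adjusted p = 0.453).

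Among 28 genes of the p53 pathway, 26 were tested, 1 lost coverage and 0 gained by limma, with 10 at an unadjusted p under 0.05. The median was -0.09, with 10 positive. The gene that fell was ZMAT3, a p53-induced RNA-binding protein, with 8.46, 6.35 and 6.17 kb in shNC and 0.811, 2.53 and 2.27 kb in shTDP43. Both RNase H libraries held 1.88 kb of it, as much as the untreated shTDP43 libraries on average. Its log2 difference was -1.80 ± 0.29 (SE, limma adjusted p = 0.0435). The call did not hold without scaling (adjusted p = 0.444), without any one shNC replicate (0.168 to 0.242) or without shTDP43 replicate 3 (0.0604), and was 0.0163 and 0.0327 without shTDP43 replicates 1 and 2. CDKN1A, the p21 cell-cycle inhibitor gene, was chosen after its values were seen. It had 11.5, 11.2 and 10.9 kb in shNC and 7.57, 7.53 and 6.90 kb in shTDP43, with no overlap in this unscaled length. It had a log2 difference of -0.41 with an adjusted p of 0.424 by limma, and passed without scaling (-0.60, adjusted p = 0.0414) and without shTDP43 replicate 1 (0.0447). Without any other library it was 0.485 to 0.769.

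The other members of the miRNA family gave no coverage to compare. MIR34BHG, the host of miR-34b and miR-34c on chromosome 11, and CDC20B, the host of the miR-449 cluster on chromosome 5, had 0 kb in all 8 libraries. BTG4, whose span holds all of MIR34BHG, had no peak in any untreated library. Among 87 annotated miRNA host genes, 40 had no peak in any untreated library. The share of such genes over the whole annotation was not computed, so nothing is read from that count. Of the 87, 35 were tested outside the window. By limma 0 gained and 0 lost coverage, with 1 at an unadjusted p under 0.05. Their median was 0.14, with 26 positive, and turned to -0.06 without scaling. The 3 with the smallest p were MIR29B2CHG at 1.04, MIR762HG at 0.25 and MIR3936HG at -0.77, with adjusted p of 0.430, 0.535 and 0.599 by limma.

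Candidate tumour suppressors of 1p36 in neuroblastoma were read the same way. Of 12 genes, 11 were tested, 0 passed in either direction by limma (4 at an unadjusted p under 0.05), and the median was -0.03 with 5 positive. CAMTA1, a calmodulin-binding transcription activator gene, had 84.0, 80.2 and 68.3 kb in shNC and 45.3, 60.4 and 55.9 kb in shTDP43 (log2 difference -0.33, adjusted p = 0.125, limma). TP73, the p53 homologue, was at -0.41 and the chromatin remodeller gene CHD5 at -0.18, with limma adjusted p of 0.195 and 0.313. Of 9 pentose phosphate and endoplasmic reticulum NADPH genes, the pathway of H6PD, 7 were tested outside the window and 0 passed by limma, with 2 at an unadjusted p under 0.05. Their median was 0.19, with 5 positive, and -0.01 without scaling. PGD, which makes NADPH in the cytosol, was at 0.35 (adjusted p = 0.402, limma), and TALDO1, the transaldolase gene, at 0.23 (adjusted p = 0.458, limma).

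Genes whose coverage varied most like that of MIR34AHG over the 6 untreated libraries were ranked by Pearson's r of the log2 scaled length. The 5 highest of 17020 were LOC105379343, HSPB7, KIFAP3, RAMP2 and ZNF782, with r from 0.997 to 0.999. All 6 points come from the same libraries, and shTDP43 replicate 1 is lowest for each gene, so r is a description. HSPB7, a small heat-shock protein gene, had 5.67, 6.19 and 5.99 kb in shNC and 0.347, 2.47 and 2.86 kb in shTDP43. KIFAP3, a kinesin adaptor gene, had 1.45, 1.58 and 1.58 kb in shNC and 0, 0.450 and 0.632 kb in shTDP43. Within the locus, r with MIR34AHG was 0.95 for LNCTAM34A, 0.81 for GPR157, -0.75 for H6PD and -0.94 for LOC124903836. The negative values are on scaled length, which raises well-covered genes most in shTDP43 replicate 1. In unscaled length that library was the lowest for H6PD (18.7 kb), as it was for MIR34AHG (0.403 kb), so no opposite behaviour is read from them.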

How the data were processed

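Peak lists of 8 DRIP-seq libraries were used, 1 list per library with replicates kept apart. Per the submitters' processing notes the build was hg38 and the tools were MACS2 2.2.6, Bowtie2 2.4.4 and SAMtools. Settings and the control of peak calling are not given in the sources used here, and the input library was not analysed here. Each deposited peak has a ratio (fold over local background), −log10 p and −log10 q values and a score, all as the authors' deposited lists give them. The lists hold no read counts. Pileup and background at a summit were solved from fold and p together. Of 2000 summits per library, at least 99.6% gave a whole pileup within 0.001 of the −log10 p.

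Covered length is the length of a window, bin or gene span (with 1 kb on each side) under peaks, on chromosomes 1 to 22 and X. For log2 differences each library was brought to the median total, and 100 bp was added. Genes averaging 500 bp or more were fitted with limma 3.58.1 in R 4.3.3 (trend, Benjamini-Hochberg), 3 untreated libraries per hairpin, after a test on simulated data. Gene positions, promoters and miRNAs are RefSeq GRCh38.p14, and all 6 genes and the listed symbols matched. Exons and introns were not used here.

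The members and lists were chosen with earlier results of these data known. Named genes are all genes of the window, the 3 nearest coding genes on each side, from each list those with adjusted p under 0.05 or otherwise the 3 with the smallest p, and the 5 most like MIR34AHG. A gene that this rule names is not reported here. Alternatives were other scaling, peak and length thresholds, equal peak numbers, a pseudocount of 1000 bp, the replicate block and leaving out each library.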

Additional observations from a re-analysis of the deposited data

How the results depend on the processing

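The window kept a negative log2 difference under every alternative run. Its value of -1.11 became -1.30 without scaling, -1.29 and -1.31 with peaks of −log10 q of at least 5 and 10, and -1.24 with equal peak numbers, and ranged from -1.18 to -1.04 when 1 library was left out. MIR34AHG, at -2.77, became -4.23 and -7.06 at those 2 q thresholds. At the higher one all 3 shTDP43 libraries had 0 kb, and at the lower one replicate 1 had 0 kb, so these values depend on the 100 bp added and are not sizes of a difference. It ranged from -3.36 to -1.66 without 1 library. Less RNase H coverage in shNC, at -46.7 kb, became -43.3 kb at −log10 q of at least 5 and -27.4 kb with equal peak numbers. In shTDP43 it went from -19.9 to -8.96 kb with equal peak numbers.

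Counts of genes moved more, from 28 with more and 106 with less coverage. They were 4 and 43 without scaling and 51 and 235 with a pseudocount of 1000 bp. With peaks of −log10 q of at least 5 they were 2 and 28, and of at least 10 they were 4 and 44. They were 46 and 148 with equal peak numbers, and 12 and 79 without the variance trend. Leaving out 1 library gave 1 to 44 with more and 1 to 165 with less coverage. The lowest counts of losses were 1, 16 and 2 without shNC replicates 1, 2 and 3, and the highest was 165 without shTDP43 replicate 1. The causes were not tested. Deviations of same-numbered libraries from their group mean correlated at -0.17, 0.02 and -0.16, and those of differently numbered libraries at -0.15 to 0.20. Deviations from a mean of 3 libraries are tied to each other, so these values cannot settle whether replicate numbers pair the samples. With a replicate block the counts were 12 and 56, the window stayed at -1.11 and MIR34AHG at -2.77.

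Depth limits what is listed: absence of a peak means that enrichment did not pass the caller's threshold, not that no hybrid was there, and shTDP43 replicate 1 was the shallowest untreated library.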

Other observations

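Peak ends that libraries share were looked at against the recognition sequences of the 5 restriction enzymes used to cut the nucleic acids (BsrGI TGTACA, EcoRI GAATTC, HindIII AAGCTT, SspI AATATT and XbaI TCTAGA). This was done inside the RefSeq promoter windows, where sequence was at hand. Of 6603 ends found there in 1 library, 327 (4.95%) lay at such a sequence. For ends shared by 2 libraries the share was 84.8%, for 3 it was 98.7%, and for ends shared by all 6 it was 99.7% (308 of 309). Of all promoter positions, 0.697% lie at one. None of the start windows of MIR34AHG, LNCTAM34A, GPR157 and H6PD holds a recognition sequence, so the shared ends of the MIR34A locus, 9234276 and 9252313 among them, were not compared with sequence here.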
